A study of Mus musculus with 9 samples.

Results

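Knockdown of Dnmt3a was compared directly with knockdown of Dnmt3b in cultured cells of the embryonic mouse heart ventricle. The members are the 3 libraries labelled DNMT3a siRNA and the 3 labelled DNMT3b siRNA, 6 of the 9 libraries of the series, and every gene row of their count tables, 43629 genes in each. Of these genes, 16233 held enough counts to be tested. All cells came from ventricles of CD-1 mice, an outbred strain, at embryonic day 13.5. Tissue was pooled within a litter, dissociated with papain, and freed of quickly adhering cells by a short plating step. After 48 h in culture the cells received 0.012 pmol of siRNA by RNAiMAX lipofection. One group received a pool of 4 siRNAs against Dnmt3a and the other a pool of 4 against Dnmt3b, so that the effect of a single siRNA cannot be separated. The 3 remaining libraries received a non-targeting control siRNA (AllStars) and serve here only as a described background. At 72 h after transfection the cells were detached and sorted magnetically by the surface protein VCAM1, and poly(A) RNA was sequenced. Protein and DNA methylation were not analysed here.

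DNMT3A and DNMT3B are the de novo DNA methyltransferases, which place methyl groups on cytosines of unmethylated CpG sites. DNMT1 copies the pattern to the new strand at replication. DNMT3B is the main de novo enzyme of the early embryo, while DNMT3A acts more widely in later development and in differentiated tissues, the heart muscle included. siRNA lowers a transcript by guiding its cleavage, and a guide strand can also repress other transcripts through matches of its seed, its first few bases, with their 3' untranslated regions (UTRs).

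The 6 libraries held 28284399 to 32628056 reads counted in genes. Levels are given as CPM, read counts brought to a common library total with TMM scaling, in the order of libraries 1, 2 and 3 of a group. The first principal component of log2 CPM, with 49.7% of the variance, placed the DNMT3a libraries from 7.01 to 43.6 and the DNMT3b libraries from -31.7 to -18.0. DNMT3a 2 lay nearest to the other group, and DNMT3b 1 stood apart on the second component (16.5%). Alignments that were not unique made up 36.6% to 40.1% of a table's total after DNMT3a siRNA and 41.5% to 42.5% after DNMT3b siRNA. The siRNA given and this property of the libraries cannot be told apart. Whether replicate libraries stem from separate litters or cultures is not stated in the labels, so a p-value measures spread among these 6 libraries only and that spread may be technical. Marker genes of heart muscle were present in all 6 libraries. Tnnt2, cardiac troponin T, stood at 173 and 207 RPKM, CPM per kilobase of exon, in the DNMT3a and DNMT3b groups. The libraries were not pure muscle, since Col1a1, the fibroblast collagen chosen after its values were seen, stood at 3235 and 3267 RPKM. In such bulk samples, fewer cells of a type and less RNA per cell cannot be told apart.

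Each siRNA pool lowered its own target in all 3 of its libraries. Dnmt3a (ENSMUSG00000020661, chromosome 12, 3806007 to 3914443, plus strand; all coordinates are GRCm38) was at 40.3, 52.9 and 46.3 CPM after DNMT3a siRNA and at 215, 234 and 235 CPM after DNMT3b siRNA, which left 20.4% of the level in the DNMT3b group (log2 fold change -2.29, SE 0.11, adjusted p = 1.81e-05). The groups did not overlap, and the DNMT3b libraries lay close to the controls at 232, 269.6 and 275 CPM. Dnmt3b (ENSMUSG00000027478, chromosome 2, 153649450 to 153687730, plus strand) was scarce, at 4.87, 4.70 and 4.71 CPM after DNMT3a siRNA (150, 155 and 144 counts) and 1.17, 2.43 and 1.51 CPM after DNMT3b siRNA (38, 75 and 43 counts). DNMT3b 2 kept the most Dnmt3b of its group, but less than any DNMT3a library, and the difference was 2.79-fold (log2 fold change 1.48, SE 0.25, adjusted p = 0.00656). Per length, the DNMT3a group held Dnmt3a at 2.80 and Dnmt3b at 0.932 RPKM, and the DNMT3b group held them at 13.7 and 0.333 RPKM. The level of Dnmt3a that remained after its own knockdown was therefore above the level of Dnmt3b in any group. Dnmt1, the maintenance enzyme, overlapped between the groups, at 172, 159 and 139 against 132, 149.7 and 142 CPM, and its log2 fold change was 0.15 (95% interval -0.06 to 0.36, adjusted p = 0.338).

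**Figure D1:**
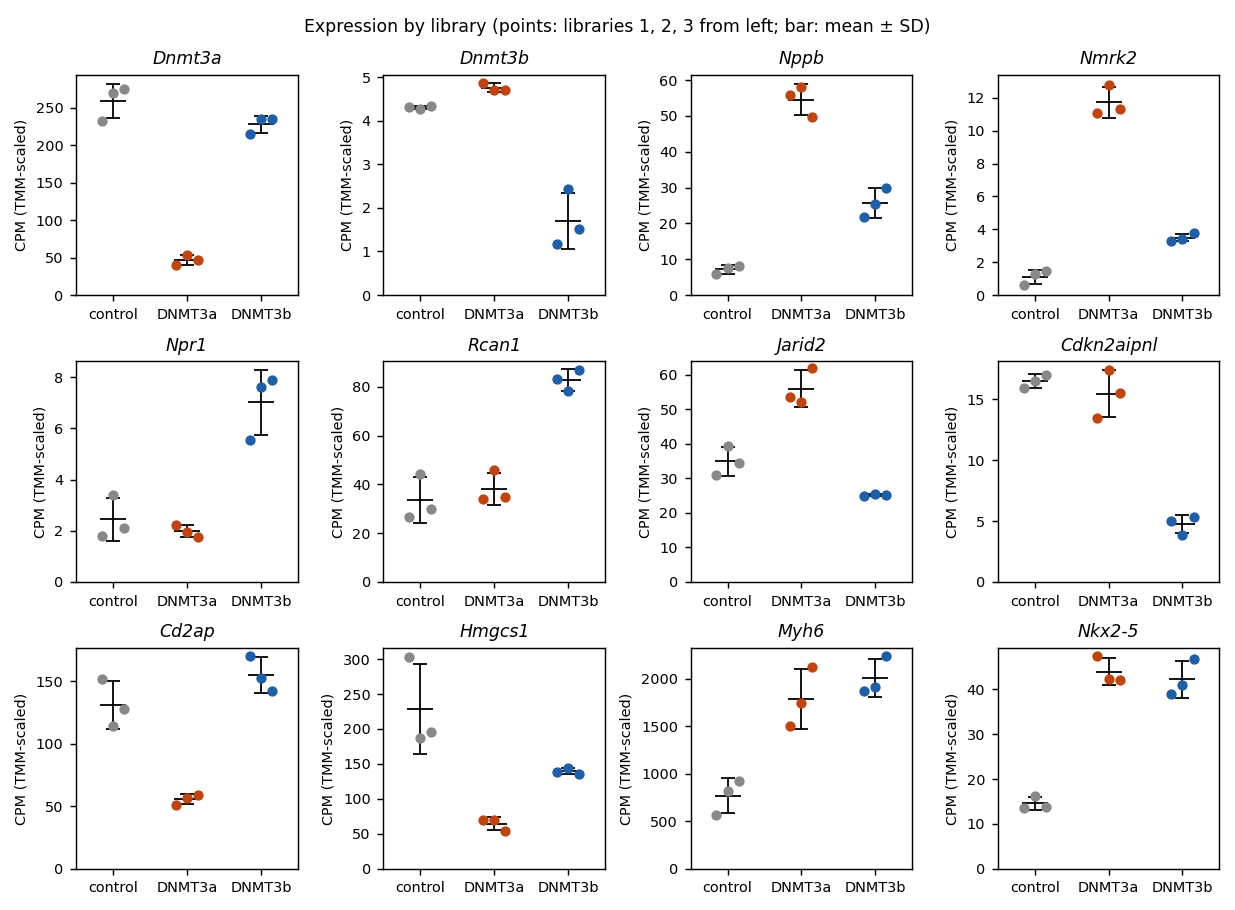
Level of 12 genes in each library, in TMM-scaled CPM from 0, for control, DNMT3a siRNA and DNMT3b siRNA; points are libraries 1, 2 and 3 from left to right, and bars are the mean ± SD (n = 3). Each targeted gene is lowest in its own knockdown, Nppb and Nmrk2 are higher after DNMT3a siRNA than after DNMT3b siRNA with both above the controls, and the knockdown groups overlap for Myh6 and Nkx2-5.

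With the targets included, 1950 of 16233 genes (12.0%) differed between the knockdowns, 854 higher (5.26%) and 1096 lower (6.75%) after DNMT3a siRNA (edgeR quasi-likelihood F test, two-sided, Benjamini-Hochberg adjusted p under 0.05). Throughout, higher and lower describe the DNMT3a group relative to the DNMT3b group, and a log2 fold change has the same direction. Most differences were small: the median was 1.44-fold among the higher genes and 1.53-fold among the lower ones, and 125 and 245 reached 2-fold. The 3 libraries of one group lay wholly on one side of the other 3 for 5305 genes (32.7%), among them 1948 of the 1950 called. The count rested on single libraries. It was 912 without DNMT3a 1, 3067 without DNMT3a 2, 1188 without DNMT3a 3, 1663 without DNMT3b 1, 626 without DNMT3b 2 and 705 without DNMT3b 3. When libraries were scaled by their totals alone, 53.6% of calls were higher, in place of 43.8%. Of the 131 genes examined by name, 110 were called and 54 of these passed in every alternative setting that gave a value, 15 settings in all and 13 for Ddx4. A called gene named below with no limit on its call is one of the 54.

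**Figure D2:**
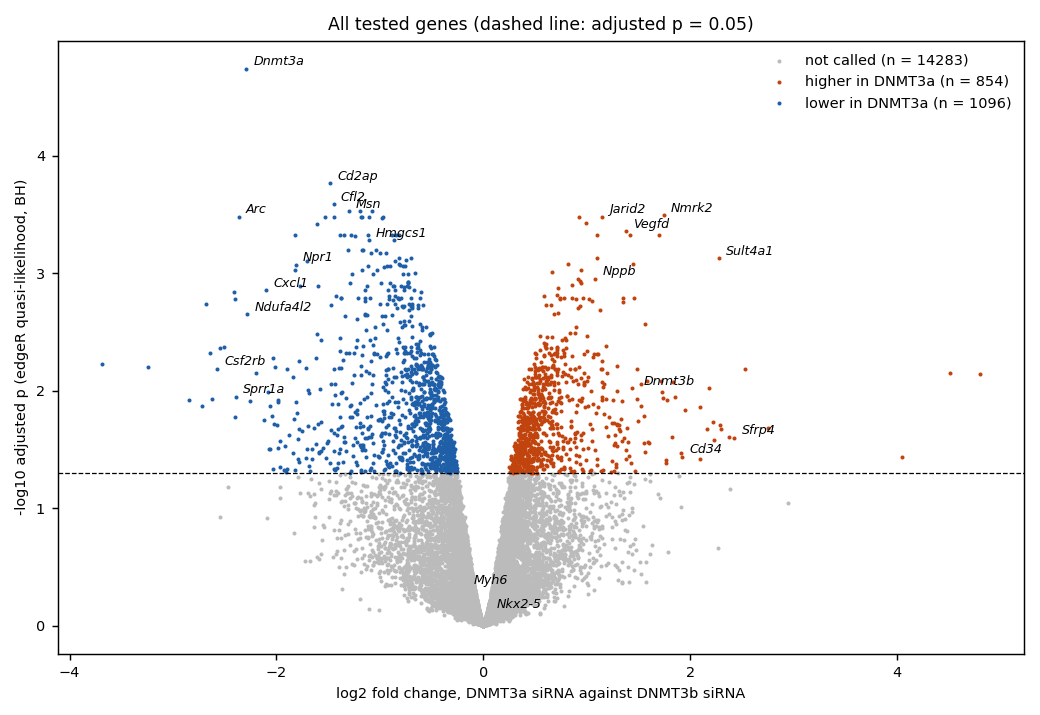
Log2 fold change of each of the 16233 tested genes (DNMT3a siRNA against DNMT3b siRNA, horizontal) and -log10 of the adjusted p (vertical); the dashed line is adjusted p = 0.05, red points are the 854 higher genes, blue points the 1096 lower genes and grey points those not called. Dnmt3a has the smallest p of all, and Myh6 and Nkx2-5 lie near the bottom of the plot.

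The controls place these differences without entering the test. For 636 of the 854 higher genes (74.5%) and 641 of the 1096 lower genes (58.5%), the control mean lay between the means of the knockdowns, as it did for 31.8% of genes that were not called. The call itself selects genes whose knockdown means lie apart, so the larger shares are partly fixed by it. Among the lower genes the control mean lay between and nearer the DNMT3b mean for 412 (37.6%), and above both means for 302 (27.6%). Among the higher genes it was nearer the DNMT3a mean for 318 and nearer the DNMT3b mean for another 318.

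Many lower genes shared a word in the 3' UTR and the sites in 6 genes described below are shown, so that the word can be read in its place. The word GCCAATA was taken from an earlier description of these same libraries, so its counts are a description and were not tested. It was searched on the transcribed strand of the longest annotated 3' UTR of each gene (GENCODE release 21, GRCm38). Each line gives 29 bases 5' to 3', as the transcript reads, with the word in capitals.
Dnmt3a, chr12:3913940-3913968, plus strand: tgggatcagtgGCCAATAgggctactgct
Cd2ap, chr17:42796156-42796184, minus strand: tattttgttttGCCAATAtgaaaaaaaag
Msn, chrX:96168518-96168546, plus strand: tctatttcagtGCCAATAaaatttaggaa
Grb2, chr11:115645432-115645460, minus strand: gtccagctgatGCCAATAataaaagacaa
Hmgcs1, chr13:119708038-119708066, plus strand: ctaatagcaagGCCAATAactttgaaata
Tgfbr2, chr9:116090076-116090104, minus strand: tttttacaacaGCCAATAacgtttgcact
Of 1031 lower genes with a usable UTR, 203 (19.7%) held the word, against 27 of 826 higher genes (3.27%), 613 of 11632 genes not called (5.27%) and 843 of all 13489 (6.25%). Its presence went with lower levels after DNMT3a siRNA in a graded way. The 12646 genes without the word had a median log2 fold change of 0.03, the 792 with 1 copy a median of -0.15, and the 51 with more copies a median of -0.26. In these 3 classes, 6.55%, 23.1% and 39.2% of genes were lower. The step was present at every UTR length: with genes split by UTR length into 4 equal classes, 41.5% of genes with the word were lower and 6.29% of those without in the shortest class, and 21.3% and 5.87% in the longest. In 157 of the genes the word ran on as GCCAATAAA, which contains the polyadenylation signal AATAAA. Of those 36.3% were lower, as were 21.3% of the 686 whose word did not run on so. This split was chosen after the sites were seen. Among the 20 genes with the smallest p, 15 were lower and 8 of these held the word, while 0 of the 5 higher ones did. The sequences of the siRNAs were not analysed here, and a part of the word in these differences was not tested.

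**Figure D3:**
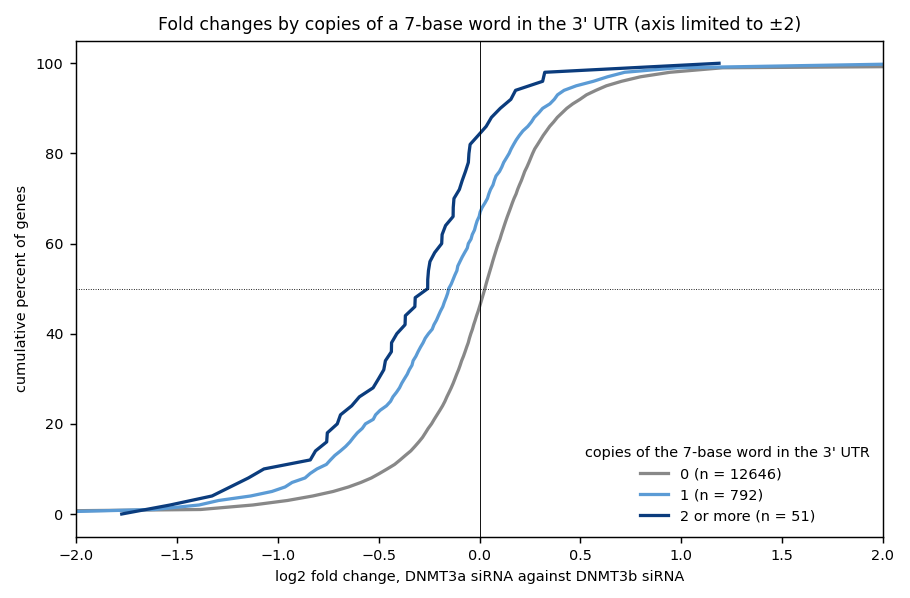
Cumulative percent of genes (vertical) by log2 fold change, DNMT3a siRNA against DNMT3b siRNA (horizontal, limited to ±2), for genes with 0 (n = 12646), 1 (n = 792) or more (n = 51) copies of the 7-base word GCCAATA in the 3' UTR. The curves shift to the left with the number of copies, with medians of 0.03, -0.15 and -0.26.

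Cd2ap, Msn and Grb2 act at the cell membrane. Cd2ap, an adaptor between membrane receptors and actin, was at 51.0, 56.8 and 58.8 CPM after DNMT3a siRNA and 170.4, 152 and 142 CPM after DNMT3b siRNA (2.79-fold lower, log2 fold change -1.48, SE 0.09, adjusted p = 0.000172). Msn, moesin, which links actin to the membrane, was at 438, 477 and 403 against 1091, 1055 and 1095 CPM (log2 fold change -1.30, SE 0.09, adjusted p = 0.000297). Both groups of libraries were tight and far apart for these genes, with controls at 152, 114 and 128 CPM for Cd2ap and 989.8, 858 and 915 CPM for Msn. Grb2, the adaptor that couples growth factor receptors to Ras, was at 37.1, 40.3 and 36.3 against 72.0, 74.3 and 76.0 CPM (log2 fold change -0.97, SE 0.08, adjusted p = 0.000332). Low p-values were also found for genes without the word: Cfl2, the muscle form of cofilin, which severs actin filaments, was 2.73-fold lower (56.1, 71.7 and 61.8 against 182, 166 and 169 CPM, adjusted p = 0.000258). Tmed10, a cargo receptor between endoplasmic reticulum and Golgi, was 2.11-fold lower (60.3, 65.9 and 57.9 against 123, 134 and 132 CPM, adjusted p = 0.000297). These 5 genes were chosen after their values were seen, as was Tmem65, a membrane protein of the cardiac intercalated disc and of mitochondria, among the higher genes with the smallest p (115, 115 and 127 against 62.2, 61.6 and 64.1 CPM, log2 fold change 0.93, SE 0.08, adjusted p = 0.000332).

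The 10 largest falls below the DNMT3b group were taken among called protein-coding genes whose groups did not overlap and whose mean log2 CPM was 2 or more. Besides Dnmt3a, they were Csf2rb, the shared beta chain of cytokine receptors, at 0.617, 1.85 and 0.916 against 4.95, 6.51 and 8.90 CPM (log2 fold change -2.57, SE 0.39, adjusted p = 0.00653), and Arc, an activity-induced immediate early gene, at 1.40, 1.45 and 1.21 against 8.18, 7.06 and 5.68 CPM (log2 fold change -2.36, SE 0.20, adjusted p = 0.000332). Arc was even across its libraries, while Csf2rb was highest in DNMT3a 2 within its group, still below the DNMT3b libraries. Steap4, a metalloreductase, was at 4.94, 2.85 and 4.09 against 9.87, 19.09 and 15.2 CPM (log2 fold change -1.90, SE 0.28, adjusted p = 0.00656). Of the 6 others, Sprr1a, a cornified envelope protein that stressed heart muscle also makes (-2.39), lost its call without DNMT3b 2 or DNMT3b 3 (adjusted p up to 0.0581). Ndufa4l2, a hypoxia-induced mitochondrial protein (-2.28), lost it in the fit of all 9 libraries (0.361). Its controls were at 0.390, 43.3 and 1.85 CPM, with control 2 far above the rest. Rtn4rl2, a receptor of the Nogo family (-2.06), lost the call without DNMT3a 3, DNMT3b 1, DNMT3b 2 or DNMT3b 3 (adjusted p up to 0.119), and Lrrn2, a leucine-rich surface protein (-1.98), without DNMT3a 1, DNMT3b 2 or DNMT3b 3 (adjusted p up to 0.120). Hif3a, a hypoxia-inducible factor (-1.92), lost it without DNMT3a 3, DNMT3b 2 or DNMT3b 3 (adjusted p up to 0.0997) and in the fit of all 9 libraries (0.137). Adamts4, an aggrecan-cleaving protease (-1.84), lost it without DNMT3a 1, DNMT3a 3, DNMT3b 2 or DNMT3b 3 (adjusted p up to 0.130), with no filter (0.114) and in the fit of all 9 libraries (0.0529).

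The largest rises included an enzyme of sulfate transfer, an NAD pathway kinase and a growth factor. Sult4a1, a brain sulfotransferase, was at 9.45, 6.88 and 7.88 CPM after DNMT3a siRNA and 2.24, 1.49 and 1.23 CPM after DNMT3b siRNA (4.84-fold, log2 fold change 2.28, SE 0.23, adjusted p = 0.000745), with controls at 2.76, 3.15 and 2.96 CPM. Sult4a1 is among the higher genes whose UTR holds the word GCCAATA. Cdkn2aipnl, a small relative of a CDKN2A-interacting protein, was at 13.5, 17.4 and 15.5 against 5.04, 3.88 and 5.33 CPM (log2 fold change 1.70, SE 0.16, adjusted p = 0.000471). Its controls, at 15.9, 16.5 and 17.0 CPM, were with the DNMT3a libraries, and the DNMT3b libraries alone stood low. The same held for Vegfd, a lymphatic growth factor, at 153, 113 and 122 against 54.6, 47.1 and 47.1 CPM (log2 fold change 1.38, SE 0.12, adjusted p = 0.000437) with controls at 132, 90.8 and 89.4 CPM. Trim12c, a TRIM family protein, was 2.73-fold higher (24.3, 16.6 and 19.2 against 6.73, 7.35 and 7.96 CPM) and Srgap1, a GTPase activator of Slit-Robo signalling, 2.68-fold (30.9, 23.3 and 28.2 against 11.3, 9.32 and 10.1 CPM). The rises were taken by the same rule as the falls, which asked that the groups not overlap. Their separation therefore follows from the choice. The other rises rested more on single libraries. Sfrp4, a secreted Wnt antagonist, was at 10.7, 3.06 and 9.68 against 1.72, 1.26 and 1.33 CPM (2.43) and Cd34, a progenitor and endothelial surface protein, at 329, 127 and 307 against 61.0, 69.4 and 70.4 CPM (1.93), with DNMT3a 2 the lowest of its group in both. Sfrp4 lost its call without DNMT3a 1, DNMT3a 3, DNMT3b 1, DNMT3b 2 or DNMT3b 3 (adjusted p up to 0.125) and with limma-voom (0.102), and Cd34 without DNMT3a 1, DNMT3a 3, DNMT3b 1, DNMT3b 2 or DNMT3b 3 (adjusted p up to 0.155) and with no filter (0.103). H2-T23, a nonclassical MHC class I gene (1.91), lost it without DNMT3b 1, DNMT3b 2 or DNMT3b 3 (adjusted p up to 0.156) and with limma-voom (0.0720), and Ccn5, a matricellular protein (1.501), without DNMT3a 1, DNMT3b 1 or DNMT3b 2 (adjusted p up to 0.0915).

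Some genes of cardiac load separated the knockdowns, in both directions. Natriuretic peptides are hormones that heart muscle secretes when stretched, and their receptor makes cyclic GMP. Nppb, brain natriuretic peptide (ENSMUSG00000029019, chromosome 4, 147985788 to 147987205, plus strand), was at 55.8, 58.1 and 49.6 CPM after DNMT3a siRNA and 21.7, 25.4 and 29.9 CPM after DNMT3b siRNA (2.12-fold, log2 fold change 1.08, SE 0.12, adjusted p = 0.00112). The groups were well apart, and both were above the controls at 5.82, 7.64 and 8.14 CPM. Its receptor Npr1 (ENSMUSG00000027931, chromosome 3, 90450591 to 90465866, minus strand) went the other way, at 2.24, 1.97 and 1.77 against 5.56, 7.61 and 7.89 CPM (3.52-fold lower, log2 fold change -1.81, SE 0.19, adjusted p = 0.000846), with the controls at 1.81, 3.41 and 2.11 CPM beside the DNMT3a libraries. Nppa, atrial natriuretic peptide, overlapped at 184, 230.2 and 156 and 184, 199 and 253 CPM, and its log2 fold change was -0.16 (95% interval -0.54 to 0.22, adjusted p = 0.574). Nmrk2, a muscle kinase that makes NAD from nicotinamide riboside (ENSMUSG00000004939, chromosome 10, 81198170 to 81202051, minus strand), was at 11.1, 12.8 and 11.4 against 3.32, 3.43 and 3.75 CPM (3.35-fold, log2 fold change 1.75, SE 0.13, adjusted p = 0.000322), above controls of 0.641, 1.27 and 1.44 CPM. Rcan1, a calcineurin inhibitor that calcineurin itself induces (ENSMUSG00000022951, chromosome 16, 92391953 to 92470867, minus strand), was at 33.9, 45.8 and 34.9 against 83.1, 78.1 and 87.1 CPM (2.17-fold lower, log2 fold change -1.12, SE 0.12, adjusted p = 0.000861). The DNMT3a libraries of Rcan1 lay with the controls at 26.5, 44.5 and 29.7 CPM, and the DNMT3b libraries alone were high. Of 21 natriuretic and load-response genes measured of 23 listed, 2 were higher and 5 lower, with a median log2 fold change of -0.03 against 0.01 over all tested genes. Calls thus reached 33.3% of the list, beside 12.0% of all tested genes. Leaving out 1 library gave 3 lower members without DNMT3a 1, DNMT3a 3, DNMT3b 2 or DNMT3b 3, and 4 higher without DNMT3a 2.

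In the contractile machinery 3 of 44 sarcomere genes were lower, 6.82% beside 6.75% of all tested genes, and 33 of 44 had a log2 fold change below 0. Myh6, the alpha myosin heavy chain of heart muscle, was at 1498, 1743 and 2125 CPM after DNMT3a siRNA and 1869, 1915 and 2235 CPM after DNMT3b siRNA, with overlap, and its log2 fold change was -0.17 (95% interval -0.47 to 0.14, adjusted p = 0.470). Both groups were above the controls at 567, 818 and 920.0 CPM. Tnnt2 was at 1422, 1386 and 1219 against 1548, 1519.8 and 1745 CPM, a log2 fold change of -0.26 (95% interval -0.49 to -0.03, adjusted p = 0.138), and Tnni3, cardiac troponin I, at 54.4, 73.1 and 60.6 against 75.5, 67.8 and 81.4 CPM, -0.26 (95% interval -0.52 to 0.00, adjusted p = 0.181). Without DNMT3a 2, Tnni3 was called (adjusted p = 0.0253). Of 44 sarcomere genes measured of 46 listed, 0 were higher and 3 lower, with a median of -0.28. The lower ones were Myh7, the beta myosin heavy chain (132, 227 and 174 against 273, 274 and 322 CPM, log2 fold change -0.71, SE 0.18, adjusted p = 0.0466), Myom1, an M-band protein (-0.33), and Tmod1, a cap of thin filaments (-0.85). These calls were near the threshold. That of Myh7 ended without DNMT3a 1, DNMT3a 3, DNMT3b 1, DNMT3b 2 or DNMT3b 3 (adjusted p up to 0.147), with library size alone (0.0856) and in the fit of all 9 libraries (0.395). That of Myom1 ended without DNMT3a 1, DNMT3b 1, DNMT3b 2 or DNMT3b 3 (adjusted p up to 0.189), with library size alone (0.0629) and in the fit of all 9 libraries (0.200), and that of Tmod1 without DNMT3a 1, DNMT3a 3, DNMT3b 1, DNMT3b 2 or DNMT3b 3 (adjusted p up to 0.158), with library size alone (0.0734) and in the fit of all 9 libraries (0.0683). The calls of Myom1 and Tmod1 also ended in a fit with a term for the library number, the replicate block. The number of lower sarcomere genes was 14 without DNMT3a 2, 0 without DNMT3a 1 or DNMT3b 3, 1 without DNMT3b 2 and 2 without DNMT3b 1.

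Of the transcription factors that specify heart muscle, 8.82% were called, beside 12.0% of all tested genes. Nkx2-5, an early cardiac homeobox factor, was at 47.4, 42.3 and 42.0 and 38.9, 40.9 and 46.9 CPM, overlapping, with a log2 fold change of 0.06 (95% interval -0.16 to 0.27, adjusted p = 0.753). Gata4, a zinc finger partner of Nkx2-5, was at 335, 317 and 301 against 259, 272 and 295 CPM, 0.21 (95% interval 0.02 to 0.40, adjusted p = 0.145): its libraries did not overlap, but the difference did not pass. Of 34 listed and measured factors, 1 was higher and 2 lower, with a median of 0.14. Isl1, a factor of heart progenitors, was at 4.94, 1.94 and 3.40 against 0.891, 1.10 and 1.82 CPM (1.43), and its call ended without DNMT3a 1, DNMT3a 3, DNMT3b 1 or DNMT3b 2 (adjusted p up to 0.160), with limma-voom (0.0656) and in the fit of all 9 libraries (0.0638). Smyd1, a muscle methyltransferase (-0.51), and Myocd, myocardin, a coactivator of serum response factor (-0.32), were the lower ones. Smyd1 lost its call without DNMT3a 1, DNMT3a 3, DNMT3b 1 or DNMT3b 3 (adjusted p up to 0.138), with library size alone (0.0710) and in the fit of all 9 libraries (0.0730), and Myocd without DNMT3a 1, DNMT3a 3, DNMT3b 1, DNMT3b 2 or DNMT3b 3 (adjusted p up to 0.208), with library size alone (0.0974), with limma-voom (0.0539) and in the fit of all 9 libraries (0.176). Smyd1 and Myocd also lost their calls with the replicate block, and Smyd1 without DNMT3a 2 and DNMT3b 1 together. Higher members numbered 4 without DNMT3a 2, and 0 without DNMT3a 1 or DNMT3b 2. Lower members numbered 3 without DNMT3a 2, 1 without DNMT3b 2 and 0 without any of the other 4 libraries.

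Calcium handling and ion channel genes were mostly lower where they differed, with 1 of 44 higher, 8 lower and a median of -0.16. Called members made up 20.5%, beside 12.0% of all tested genes. Ryr2, the calcium release channel of the sarcoplasmic reticulum, was at 135, 168 and 173 against 239, 231 and 279 CPM (log2 fold change -0.66, SE 0.11, adjusted p = 0.00696). Its groups did not overlap and both exceeded the controls, at 50.2, 78.1 and 79.2 CPM. Hrc, a calcium-binding protein of the same store, was at 4.58, 6.0001 and 8.31 against 12.9, 12.0 and 15.3 CPM (-1.09) and lost its call in the fit of all 9 libraries (0.0845). Scn4b, a sodium channel subunit, was at 0.195, 0.394 and 0.262 against 0.891, 1.68 and 1.09 CPM (-2.08) and lost its call without DNMT3b 2 (adjusted p = 0.0550). Gja1, connexin 43, the main gap junction protein of ventricular muscle and also of fibroblasts, was the higher one (290.1, 299.6 and 362 against 203, 177 and 210.2 CPM, log2 fold change 0.69, SE 0.11, adjusted p = 0.00488), with controls at 208, 205 and 221 CPM near the DNMT3b libraries. The number of lower members was 5 without DNMT3a 1, 4 without DNMT3b 2 and 4 without DNMT3b 3.

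Genes of the respiratory chain were lower after DNMT3a siRNA where they differed. Of 50 respiratory chain genes, 0 were higher and 9 lower, with a median of -0.24 and 46 of 50 below 0. The lower ones are 18%, beside 6.75% of all tested genes. Cox7a2, a small subunit of cytochrome oxidase whose UTR holds the word GCCAATA, was at 14.4, 22.3 and 11.7 against 50.8, 49.3 and 48.3 CPM (3.07-fold lower, log2 fold change -1.62, SE 0.22, adjusted p = 0.00525). Cox8a, another subunit, was at 143, 162 and 133 against 195, 219 and 238 CPM (log2 fold change -0.57, SE 0.10, adjusted p = 0.00813). For Cox7a2 the controls (35.0, 36.1 and 22.5 CPM) lay between, above all 3 DNMT3a libraries and below all 3 DNMT3b libraries. DNMT3a 2, at 22.3 CPM, was barely below control 3. Cox8a also had its DNMT3b libraries above the controls (139, 152 and 123 CPM), while its DNMT3a libraries overlapped them. Cox4i1, the subunit IV of the same complex (-0.46), lost its call without DNMT3a 1, DNMT3a 3, DNMT3b 1, DNMT3b 2 or DNMT3b 3 (adjusted p up to 0.0625). Uqcrfs1, the iron-sulfur protein of complex III (-0.34), lost it without DNMT3a 1, DNMT3a 3, DNMT3b 2 or DNMT3b 3 (adjusted p up to 0.0921). The list's count of lower genes hung on single libraries: it was 28 without DNMT3a 2, 3 without DNMT3a 1, 5 without DNMT3b 1, and 2 without DNMT3a 3, DNMT3b 2 or DNMT3b 3.

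Of 35 fatty acid oxidation genes, 1 was higher and 6 lower (median -0.14). Together they are 20%, beside 12.0% called over all tested genes. Cpt1a, the liver-type transferase that admits fatty acids to mitochondria, was at 102, 77.4 and 84.1 against 61.8, 57.4 and 57.7 CPM (0.58) and lost its call without DNMT3b 2 (adjusted p = 0.0522). Acads, short-chain acyl-CoA dehydrogenase, was at 25.1, 29.4 and 25.5 against 36.7, 39.3 and 43.7 CPM (log2 fold change -0.58, SE 0.10, adjusted p = 0.00768). Acadl, its long-chain relative (-0.56), lost its call without DNMT3b 3 (adjusted p = 0.0515), and Lpl, lipoprotein lipase (-0.50), without DNMT3b 2 (adjusted p = 0.0657). Cpt1a thus lay on the opposite side from Acads and Acadl, while 28 of the 35 members were not called. Lower members numbered 3 without DNMT3a 1, 4 without DNMT3a 3 or DNMT3b 1, and 2 without DNMT3b 2 or DNMT3b 3.

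Glycolysis and hypoxia genes had the largest number of lower members of the 32 lists, 16 of 37 with 1 higher and a median of -0.35. The lower share was 43.2%, beside 6.75% of all tested genes. Aldoa, aldolase, was at 346, 420.2 and 332 against 602, 655 and 695 CPM (log2 fold change -0.83, SE 0.11, adjusted p = 0.00197), and Ldha, lactate dehydrogenase, at 247, 326 and 242 against 439.6, 472 and 471 CPM (log2 fold change -0.76, SE 0.12, adjusted p = 0.00476). P4ha1, a prolyl hydroxylase of collagen, was also lower (-0.43), while Pfkp, the platelet form of phosphofructokinase, was higher (208, 208 and 169.6 against 113, 130.5 and 135 CPM, 0.63). Aldoa holds the word GCCAATA in its UTR and the other 3 do not. Control 2 stood apart from the other controls in these genes, for example with Aldoa at 445, 769 and 456 CPM. In the fit of all 9 libraries, which shares the spread of the controls, only 1 member was lower, and Ldha, P4ha1 and Pfkp were not called (adjusted p = 0.146, 0.137 and 0.185). P4ha1 also missed the threshold without DNMT3b 2 (adjusted p = 0.0553). Lower members numbered 7 without DNMT3a 1, 9 without DNMT3a 3, 5 without DNMT3b 2 and 6 without DNMT3b 3.

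Enzymes of cholesterol and fatty acid synthesis, which the factor SREBP regulates, were lower more often than higher where they differed. Hmgcs1, an early enzyme of the mevalonate pathway (ENSMUSG00000093930, chromosome 13, 119690379 to 119708260, plus strand), was at 70.4, 70.0 and 53.9 against 139, 144 and 136 CPM (2.16-fold lower, log2 fold change -1.11, SE 0.11, adjusted p = 0.000524). All 6 libraries lay below the controls, at 303, 187 and 196 CPM, with the DNMT3a libraries lowest. Elovl6, which lengthens fatty acids, was at 23.5, 23.7 and 23.1 against 36.3, 42.8 and 40.1 CPM (log2 fold change -0.76, SE 0.09, adjusted p = 0.00140). Scd2, a fatty acid desaturase (-0.58), was lower but lost its call without DNMT3b 2 (adjusted p = 0.0531). In all, 2 of 33 members were higher and 9 lower, with a median of -0.27. That is 33.3% called, beside 12.0% of all tested genes. Without DNMT3a 3, DNMT3b 2 or DNMT3b 3, the lower members numbered 6, 2 and 5. The higher ones numbered 0 without any one of DNMT3a 1, DNMT3a 3 and the 3 DNMT3b libraries.

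Transcripts of a TGF-beta ligand and of its type II receptor differed. Signalling itself was not measured. TGF-beta acts through a receptor pair of type I and type II and controls matrix production. Tgfb1, the ligand, was at 62.6, 66.1 and 63.2 against 84.2, 106 and 102 CPM (log2 fold change -0.61, SE 0.10, adjusted p = 0.00492). Tgfbr2, the type II receptor, was at 73.3, 75.5 and 69.9 against 172, 145 and 131 CPM (log2 fold change -1.04, SE 0.10, adjusted p = 0.000630). Ltbp2, a matrix protein of the latent TGF-beta binding protein family, was at 77.5, 89.4 and 80.0 against 155, 194 and 184 CPM (log2 fold change -1.11, SE 0.10, adjusted p = 0.000471). For the ligand and the receptor the DNMT3b libraries were at or near the control level (89.5, 96.6 and 107 and 185, 156 and 187 CPM). Smad1, which relays BMP signals, was higher (62.2, 61.9 and 62.0 against 44.3, 45.6 and 47.0 CPM, log2 fold change 0.44, SE 0.07, adjusted p = 0.00646). Of 37 BMP and TGF-beta genes measured of 42 listed, 2 were higher and 7 lower, with a median of 0.01. These calls are 24.3% of those measured, beside 12.0% of all tested genes. Higher members numbered 7 without DNMT3a 2, and 1 without DNMT3a 1 or any DNMT3b library. 

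Some chemokines and immediate early genes were lower. Cxcl1, a neutrophil chemokine, was at 0.617, 0.879 and 1.01 against 4.27, 3.27 and 3.22 CPM (4.28-fold lower, log2 fold change -2.10, SE 0.25, adjusted p = 0.00140). Ccl2, a monocyte chemokine, was at 22.1, 27.0 and 27.1 against 71.1, 58.8 and 55.6 CPM (log2 fold change -1.28, SE 0.12, adjusted p = 0.000471). In Cxcl1 the DNMT3a libraries were level with the controls (0.641, 0.813 and 0.925 CPM), and in Ccl2 the controls lay between (37.6, 38.2 and 54.5 CPM). Cx3cl1, a membrane-bound chemokine, and Cxcl16 were lower with log2 fold changes of -0.68 and -0.97. Of 18 chemokine, cytokine and complement genes measured of 24 listed, 2 were higher and 6 lower (median -0.50), with 4 lower without DNMT3b 1, DNMT3b 2 or DNMT3b 3. The called share was 44.4%, beside 12.0% of all tested genes. Higher members numbered 3 without DNMT3a 2, 1 without DNMT3a 1 or DNMT3b 1, and 0 without any of the other 3 libraries. Of 25 immediate early genes, which respond to growth signals within minutes, 1 was higher and 6 lower (median -0.24). Here the called share was 28%. Besides Arc, Errfi1, an inhibitor of the EGF receptor, was at 25.8, 32.4 and 27.6 against 57.2, 52.9 and 53.8 CPM (log2 fold change -0.94, SE 0.10, adjusted p = 0.000861), and Egr3, a zinc finger factor, at 1.62, 0.939 and 0.981 against 3.32, 2.65 and 2.91 CPM (log2 fold change -1.33, SE 0.26, adjusted p = 0.0116). Fosl1, a partner of Jun (-1.002), lost its call without DNMT3a 3, DNMT3b 2 or DNMT3b 3 (adjusted p up to 0.0721). The lower count was 3 without DNMT3b 2 and 4 without DNMT3b 3. The higher count was 2 without DNMT3a 2 or DNMT3b 1, and 0 without any of the other 4 libraries.

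Among chromatin genes outside the targets, single members differed. Of 24 genes of the DNA methylation machinery and its readers, 2 were higher and 2 lower (16.7% called, beside 12.0% of all tested genes), with a median of 0.12. Each of the siRNA targets is one of these, so the list says little beyond them. Ahcy, which clears the product of methyl transfer, was at 1.69, 2.03 and 4.19 against 5.99, 6.63 and 6.31 CPM (-1.26) and lost its call without DNMT3a 1, DNMT3a 2, DNMT3b 1, DNMT3b 2 or DNMT3b 3 (adjusted p up to 0.0997) and in the fit of all 9 libraries (0.114). Gadd45g, linked to active demethylation, was at 88.4, 72.4 and 89.4 against 52.7, 62.0 and 65.9 CPM (0.47) and lost its call without DNMT3a 1, DNMT3a 3, DNMT3b 1 or DNMT3b 2 (adjusted p up to 0.0894). Of 23 Polycomb genes, 2 were higher and 0 lower (median 0.04), so 8.70% were called, below the 12.0% of all tested genes. Jarid2, a cofactor that recruits Polycomb repressive complex 2 and is needed in heart development (ENSMUSG00000038518, chromosome 13, 44729474 to 44921643, plus strand), was at 53.6, 52.2 and 62.1 against 24.99, 25.5 and 25.2 CPM (2.22-fold, log2 fold change 1.15, SE 0.09, adjusted p = 0.000332). Its controls, at 30.9, 39.5 and 34.4 CPM, lay between the knockdowns. Ring1, a ubiquitin ligase of complex 1, was at 29.8, 27.7 and 23.8 against 17.3, 16.5 and 15.7 CPM (log2 fold change 0.71, SE 0.11, adjusted p = 0.00449). Among 13 small RNA genes, Drosha, the nuclease that starts microRNA processing, was higher (103, 91.5 and 95.2 against 73.0, 60.6 and 66.7 CPM, log2 fold change 0.53, SE 0.09, adjusted p = 0.00656), and Ago3, an Argonaute protein (-0.37), was lower but lost its call without DNMT3a 1, DNMT3b 2 or DNMT3b 3 (adjusted p up to 0.122) and in the fit of all 9 libraries (0.0653). Without DNMT3a 2, 4 small RNA genes were higher. The 2 calls of that list are 15.4% of it.

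DNA methylation is known to silence germline genes and 1 parental copy of imprinted genes. Calls reached 14.3% of the measured germline genes and 17.9% of the imprinted ones, beside 12.0% of all tested genes. Of 22 germline genes listed, 7 held enough counts to be tested, and 0 of these were higher and 1 lower. Ddx4, an RNA helicase of germ cells, had 0, 3 and 2 counts after DNMT3a siRNA and 26, 17 and 24 counts after DNMT3b siRNA. All DNMT3b libraries were above all DNMT3a libraries, and the fitted log2 fold change of -3.69 (95% interval -5.03 to -2.35, adjusted p = 0.00590) depends on the prior count at such low numbers. DESeq2 and the filter of 1 CPM gave no value for Ddx4. The controls stood at 1.42, 0.715 and 1.18 CPM, so the DNMT3b libraries were not above them as a group. Of 39 imprinted genes measured of 45 listed, 3 were higher and 4 lower (median -0.10). The counts do not tell parental copies apart, and whether the listed genes are imprinted in these cells was not tested. Gab1, a docking protein of growth factor receptors, was at 109, 101 and 123 against 68.6, 72.2 and 75.6 CPM (log2 fold change 0.62, SE 0.09, adjusted p = 0.00351). Copg2, a coatomer subunit (0.43), lost its call without DNMT3b 2 or DNMT3b 3 (adjusted p up to 0.0606). Nnat, neuronatin (-0.52), lost its call without DNMT3b 2 or DNMT3b 3 (adjusted p up to 0.0580) and in the fit of all 9 libraries (0.116), and Ddc, the decarboxylase of dopamine synthesis (-0.65), without DNMT3b 1, DNMT3b 2 or DNMT3b 3 (adjusted p up to 0.0742). The lower imprinted genes numbered 9 without DNMT3a 2, 2 without DNMT3a 1 or DNMT3a 3 and 0 without DNMT3b 2 or DNMT3b 3, and the higher ones 1 without DNMT3b 2 or DNMT3b 3. Promoter sequences were matched for 77.4% of the higher and 74.9% of the lower genes, under 80%, so a check of their base content was void.

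Markers of other cell types moved with the groups to different degrees. Their part in the results above was not tested. Macrophage and leukocyte genes were scarce, summing to 13.1 to 30.03 CPM after DNMT3a siRNA, 31.2 to 73.1 CPM after DNMT3b siRNA and 35.3 to 99.1 CPM in controls. All 21 measured members had negative log2 fold changes, with a median of -1.19, yet only Csf1r, the receptor of macrophage colony stimulating factor, passed (2.60, 3.21 and 3.27 against 4.43, 5.15 and 5.22 CPM, -0.70). Its call ended without DNMT3a 1, DNMT3b 2 or DNMT3b 3 (adjusted p up to 0.114) and in the fit of all 9 libraries (0.119). C1qa, a complement gene of macrophages chosen after its values were seen, ran from 0.357 to 1.76 CPM and from 0.922 to 4.52 CPM, overlapping, with a log2 fold change of -1.25 (95% interval -2.95 to 0.45, adjusted p = 0.306). Lower members numbered 3 without DNMT3a 3, 2 without DNMT3a 2 or DNMT3b 1 and 0 without DNMT3a 1, DNMT3b 2 or DNMT3b 3. With the replicate block, 9 were lower. In the fit by group alone the called share was 4.76%, beside 12.0% of all tested genes.

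Erythroid genes were scarce apart from Tfrc. Of 14 listed, 5 globin genes were at 0 in all 6 libraries and 3 members held enough counts to be tested. The list summed to 49.8 to 72.6 CPM after DNMT3a siRNA, 82.4 to 112 CPM after DNMT3b siRNA and 41.4 to 71.8 CPM in controls, so the knockdowns did not overlap. Tfrc, the transferrin receptor that many cell types use, chosen after its values were seen, made up most of that sum at a mean of 60.2 against 91.0 CPM. All 3 tested members had negative log2 fold changes, with a median of -1.02, and 1 was called: Epor, the erythropoietin receptor, at 1.23, 1.03 and 1.11 against 2.03, 2.33 and 2.49 CPM (-1.02). It lost its call without DNMT3a 3, DNMT3b 2 or DNMT3b 3 (adjusted p up to 0.0845) and in the fit of all 9 libraries (0.0998). The called share of the list, 33.3% beside 12.0% of all tested genes, is this 1 gene of 3.

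Endothelial and endocardial genes also sat lower, with a median of -1.07 over 21 members, 1 higher and 4 lower, although their summed level, to which a few abundant members add most, was 422 to 436 CPM against 450 to 496 CPM. Calls reached 23.8% of the members, beside 12.0% of all tested genes. Sox18, a factor of endothelial identity, was at 0.325, 0.788 and 0.720 against 1.41, 2.04 and 3.12 CPM (-1.83) and lost its call without DNMT3b 2 or DNMT3b 3 (adjusted p up to 0.0719). Adgrl4, an endothelial receptor (-1.41), lost its call without DNMT3a 1, DNMT3a 3 or DNMT3b 3 (adjusted p up to 0.0903) and in the fit of all 9 libraries (0.123). Robo4, another (-1.68), lost it without DNMT3a 1, DNMT3a 3, DNMT3b 2 or DNMT3b 3 (adjusted p up to 0.160) and in the fit of all 9 libraries (0.111). Klf2, a flow-responsive factor, was higher (49.6, 33.2 and 48.1 against 25.5, 21.7 and 24.6 CPM, log2 fold change 0.86, SE 0.15, adjusted p = 0.00821). Pecam1 and Cdh5, which define the lineage and were chosen after their values were seen, were at 3.64, 12.1 and 6.77 against 17.8, 19.6 and 19.7 CPM and at 6.17, 23.0002 and 11.5 against 28.5, 30.8 and 33.5 CPM. DNMT3a 2 lay closest to the DNMT3b libraries in both, and neither was called, at -1.34 (95% interval -2.31 to -0.37, adjusted p = 0.0873) and -1.19 (95% interval -2.39 to 0.01, adjusted p = 0.180). Without DNMT3a 2 both were called (adjusted p = 0.00142 and 0.00401), as was Pecam1 without DNMT3a 1 (0.0372), and 13 members of the list were lower. Without DNMT3a 3, DNMT3b 2 or DNMT3b 3 the lower members numbered 1, 1 and 0, and with the replicate block 9.

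The summed level of fibroblast genes overlapped between the groups, at 95811 to 108886 CPM against 99210 to 106244 CPM. Of 34 members, 2 were higher and 4 lower (median -0.01), which is 17.6% called, beside 12.0% of all tested genes. Col1a1 was at 21841, 22101 and 19751 and 22796, 21420.3 and 20102 CPM, with a log2 fold change of -0.02 (95% interval -0.29 to 0.26, adjusted p = 0.950). Single members differed. Thbs1, thrombospondin 1, was at 4360.4, 5036 and 3207 against 8872, 9125 and 8419.7 CPM (log2 fold change -1.07, SE 0.16, adjusted p = 0.00406), Pdgfra, a growth factor receptor of mesenchyme, at 93.1, 128 and 125 against 206, 213 and 194 CPM (log2 fold change -0.83, SE 0.12, adjusted p = 0.00352), and Mfap5, a microfibril protein, at 3.77, 1.73 and 2.62 against 0.584, 0.777 and 0.911 CPM (log2 fold change 1.83, SE 0.33, adjusted p = 0.00840). Tnc, tenascin C (-0.55), lost its call without DNMT3b 2 (adjusted p = 0.0672). Without DNMT3a 2, 7 members were higher, and 1 without DNMT3a 1, DNMT3a 3, DNMT3b 2 or DNMT3b 3. Lower members numbered 2 without DNMT3b 2. Of 17 epicardial genes, 0 were higher and 2 lower (median -0.13), so 11.8% were called, beside 12.0% of all tested genes. Aldh1a2, which makes retinoic acid in the outer layer of the heart, was at 22.7, 32.3 and 19.9 against 57.1, 57.9 and 52.8 CPM (log2 fold change -1.16, SE 0.16, adjusted p = 0.00415), with controls at 86.7, 68.7 and 60.2 CPM. Krt8, an epithelial keratin (-0.59), lost its call without DNMT3a 3, DNMT3b 2 or DNMT3b 3 (adjusted p up to 0.111) and in the fit of all 9 libraries (0.138). Mcam, a surface protein of pericytes and smooth muscle, was lower (270.1, 268 and 296 against 387, 380.2 and 379 CPM, log2 fold change -0.46, SE 0.08, adjusted p = 0.00696), 1 of 2 lower genes among 17 of that list (median -0.05), which numbered 5 without DNMT3a 2 and 1 without DNMT3a 1, DNMT3a 3, DNMT3b 2 or DNMT3b 3. Called members of that list were also 11.8%. Tubb3, neuronal tubulin, was at 131, 112 and 103 against 65.0, 41.5 and 44.3 CPM (log2 fold change 1.20, SE 0.18, adjusted p = 0.00713), 1 of 2 higher genes among 8 Schwann and neural genes measured of 13. That list summed to 186 to 189 CPM against 110 to 148 CPM. Its called share was 25%. Vcam1, the gene of the sort marker, was at 217, 212 and 258 against 307, 275 and 268 CPM. Its groups did not overlap and its log2 fold change was -0.30 (95% interval -0.53 to -0.08, adjusted p = 0.0748). It was called without DNMT3a 3 (adjusted p = 0.0402). The alternatives gave adjusted p-values of 0.0213 to 0.204.

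Interferon-stimulated genes had the highest median of any list and no call in the main fit, edgeR on the 6 libraries by group alone after the count filter. These genes answer viral RNA and other foreign nucleic acid. Of 45 members, 0 were higher and 0 lower in that main fit, with a median log2 fold change of 0.82 and 40 above 0. At an unadjusted p under 0.05 1 was higher (Mx1, an antiviral GTPase), and the adjusted p of DESeq2 called 2 and that of limma-voom 0. The edgeR fit with no filter also called Mx1 higher. The level of the list, the median over members of log2(CPM + 0.5) relative to the mean of the 6 libraries, was 0.83, -0.53 and 0.79 in the DNMT3a libraries and 0.33, -0.77 and -0.47 in the DNMT3b libraries, numbers 1 to 3. DNMT3a 2 was below DNMT3b 1, and the controls spread as widely, at 0.89, -0.32 and 1.22. The groups were separated in 0 of 45 members, beside 32.7% of all tested genes. Library 2 was the lowest in every group. Within each number the DNMT3a library was above the DNMT3b library. Ifit1, an inhibitor of viral translation, was at 123, 25.1 and 98.2 against 63.2, 12.3 and 23.9 CPM, 1.31 (95% interval -1.001 to 3.61, adjusted p = 0.408), and Irf7, the factor that amplifies the response, at 57.3, 19.12 and 58.7 against 33.8, 11.2 and 16.1 CPM, 1.14 (95% interval -0.48 to 2.76, adjusted p = 0.313). Both were chosen after their values were seen. Without DNMT3a 2, 8 members were higher, and without DNMT3a 2 and DNMT3b 1 together, a setting added after the data were seen, 40 were. The fit with the replicate block, a term for the library number, called 14 members higher. Of 19 genes of MHC class I presentation, which interferon induces, 1 was higher (H2-T23, above), 5.26% as among all tested genes, and the median was 0.44. Without DNMT3a 2 there were 4, and 0 without DNMT3b 2 or DNMT3b 3.

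The amino acid and unfolded protein response showed a further library dependence. ATF4 is the factor that raises amino acid synthesis and tRNA charging under stress. Of 32 genes of this response, 5 were higher and 1 lower, with a median of 0.37. The higher ones are 15.6%, beside 5.26% of all tested genes. Mthfd2, a mitochondrial folate enzyme, was at 89.8, 80.4 and 86.2 against 54.1, 38.8 and 42.5 CPM (1.89-fold, log2 fold change 0.92, SE 0.12, adjusted p = 0.00197). Its controls, at 81.9, 75.1 and 80.8 CPM, were level with the DNMT3a libraries. Wars, tryptophanyl-tRNA synthetase, was at 107, 91.6 and 103 against 73.6, 61.0 and 69.6 CPM (log2 fold change 0.56, SE 0.09, adjusted p = 0.00656), and Atf5, a factor of the same family, at 214, 176 and 238 against 151, 98.7 and 114 CPM (0.79), its call ending without DNMT3a 1, DNMT3a 3, DNMT3b 2 or DNMT3b 3 (adjusted p up to 0.102). The lower gene was Vldlr, a lipoprotein receptor (48.9, 61.6 and 60.0 against 99.2, 82.8 and 89.2 CPM, log2 fold change -0.67, SE 0.11, adjusted p = 0.00525). DNMT3b 1 lay at 0.11 on the list's level, near the DNMT3a libraries at 0.15, 0.13 and 0.22 and apart from DNMT3b 2 and 3 at -0.33 and -0.26. Without DNMT3b 1, 19 members were higher, without DNMT3a 2 there were 8, and without any of the other 4 libraries 2.

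**Figure D4:**
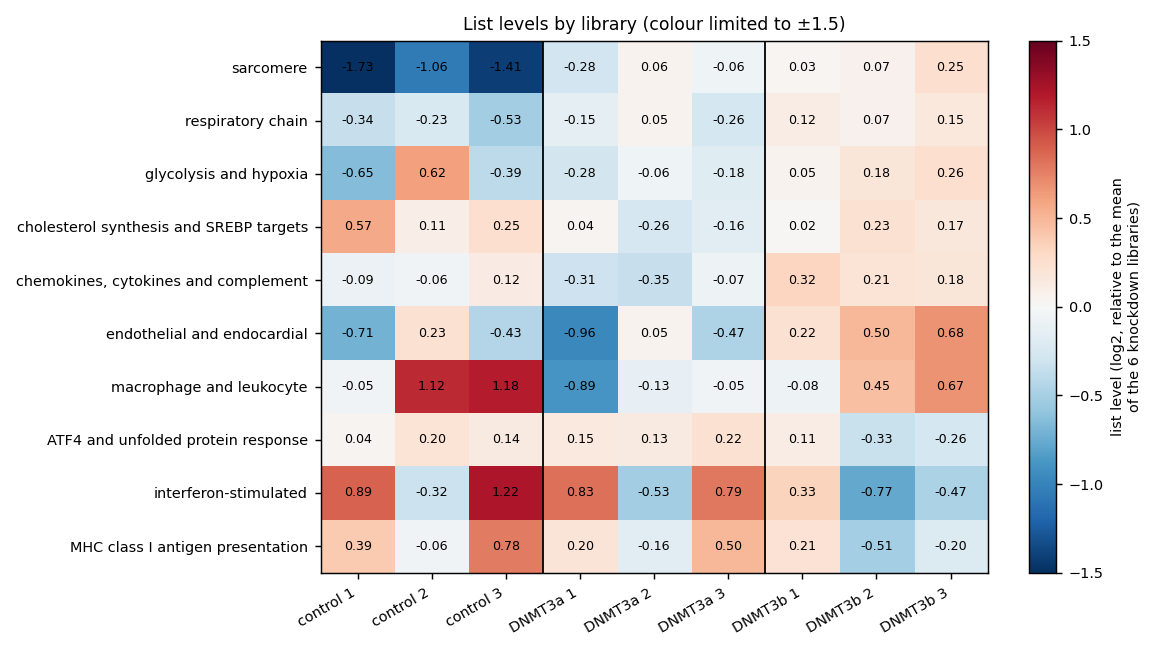
Level of 10 gene lists in each of the 9 libraries, as the median over members of log2(CPM + 0.5) relative to the mean of the 6 knockdown libraries; red is above and blue below that mean, the colour scale stops at ±1.5, and the value is printed in each cell. DNMT3a 2 differs from DNMT3a 1 and 3 on the interferon-stimulated row (-0.53 against 0.83 and 0.79), and DNMT3b 1 from DNMT3b 2 and 3 on the ATF4 row (0.11 against -0.33 and -0.26).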

How the data were processed

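RNA-seq libraries of 3 DNMT3a siRNA, 3 DNMT3b siRNA and 3 control samples were given, each with 1 table of whole-number read counts per Ensembl gene that the authors deposited without normalisation. The submitters' processing notes name FastQC, TopHat2, HTSeq and the mm10/GRCm38 build; versions, annotation release and strand setting were not given in the sources used here, so overlapping and antisense genes are uncertain, as are near-identical copies. The 5 summary lines, 49.2% to 56.2% of a table's total in the 6 libraries, were left out. Symbols, coordinates, exon lengths and 3' UTRs of at least 50 bases came from GENCODE release 21 (GRCm38), which named 42548 of the identifiers and not the other 1081.

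Genes were kept by filterByExpr (minimum count 10, minimum total 15) and libraries scaled by TMM. The 6 libraries were fitted with edgeR 4.0.16 (R 4.3.3, quasi-likelihood, robust, group as the only term, 4 residual degrees of freedom, biological coefficient of variation 0.134), with Benjamini-Hochberg adjustment over 16233 genes. The scripts were tested on simulated data. RPKM are CPM divided by the length of merged exons. An exact permutation test of 3 against 3 libraries cannot go below p = 0.1 and was not used. Named genes were the 3 methyltransferases, the sort marker Vcam1, the heart muscle genes Gata4, Nkx2-5, Nppa, Tnni3, Tnnt2, Myh7 and Myh6, the 10 largest changes each way, and up to 4 called members of each of 32 lists (896 genes, 21 of them in more than 1 list) with the smallest adjusted p. Some genes that the rule names are not reported here. Other genes are said to be chosen after their values were seen. Members and lists were chosen with earlier results of these data known. Replicates all differed by more than sampling noise (chi-square over its degrees of freedom from 6.42 to 54.5), so each counted once. Alternatives were other scalings and filters, DESeq2 1.42.0, limma-voom (limma 3.58.1), a fit of all 9 libraries, the replicate block, a 2-fold threshold and each library left out. Intervals are 95%.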

Additional observations from a re-analysis of the deposited data

How the results depend on the processing

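Deviations of same-numbered libraries from their group means correlated with r = 0.161, 0.0774 and 0.0393. As not all exceed 0.1, a limit chosen here, the library numbers were not read as pairs. All the correlations were positive, and whether the numbers mark pairs was not settled. The fit with the replicate block called 1675 genes, 700 higher and 975 lower. Among the lists it called 14 interferon-stimulated genes higher in place of 0, 9 macrophage genes lower in place of 1, 9 endothelial genes lower in place of 4, 7 imprinted genes lower in place of 4, 4 MHC class I genes higher in place of 1, 8 ATF4 genes higher in place of 5 and 0 cardiac transcription factors lower in place of 2. In the check of pairing, DNMT3a 1 and DNMT3a 3 correlated best with their own number, and DNMT3a 2 about equally with 2 (0.0774) and 3 (0.0765).

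With 1 library left out, the count of genes that differed ran from 626 to 3067, of higher genes from 217 to 1482 and of lower genes from 409 to 1585. Without DNMT3a 2 and DNMT3b 1 together, chosen after seeing the data, 3911 genes differed, 1972 higher and 1939 lower. A threshold of 2-fold left 370, 125 higher and 245 lower. With no filter 2848 of 31010 genes were called, with DESeq2 2447, with limma-voom 1908, with size factors 1945, with library size alone 1838, with a filter of 1 CPM in 3 libraries 1938 and with all 9 libraries 1582. None of the 1950 genes was called in the other direction under any of these. Of the 131 genes examined by name, 2 that were not called turned direction: Col1a1 with library size alone (0.012), with 1 library left out (from -0.066 to 0.034, above 0 without DNMT3a 3 or DNMT3b 1) and without DNMT3a 2 and DNMT3b 1 together (0.00011), and Nkx2-5 with 1 library left out (from -0.011 to 0.131, below 0 without DNMT3a 1). Where a call was lost the cause was not tested. Of the 21 named genes that were not called, 10 passed in at least 1 setting. Depth limits the scarce genes: Dnmt3b in its own knockdown rests on 38 to 75 counts per library.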

Other observations

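Higher genes were longer than lower ones. The median length of merged exons was 5563 bases among the 854 higher genes, 4097 among the 1096 lower genes and 3894 among genes that were not called. With genes split by length into 5 equal classes, from the shortest to the longest, the share called higher was 1.52%, 3.19%, 5.52%, 7.001% and 9.17%, while the share called lower stayed between 5.67% and 7.69%. The median log2 fold change went from -0.07 in the shortest class to 0.06 in the longest. Longer genes gather more reads, and the part of this in the shares was not tested.

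Of 40 cell cycle and DNA replication genes, 0 were higher and 2 lower, 5% beside 12.0% called over all tested genes, with a median of 0.02: Mcm7, a subunit of the replicative helicase, had a log2 fold change of -0.70, and E2f1, an activator of S phase genes, of -0.54. E2f1 lost its call without DNMT3a 3, DNMT3b 2 or DNMT3b 3 (adjusted p up to 0.088), and 2 members were higher without DNMT3a 2 or DNMT3a 3. Of 25 p53 targets and cell cycle inhibitors, 1 was higher (Fas, a death receptor, 0.55) and 2 lower (Cdkn2b, an inhibitor of CDK4 and CDK6, -0.85, and Eda2r, a receptor that p53 induces, -0.65), which is 12% in all. Higher members numbered 4 without DNMT3a 2. Each of these 3 lost its call when some single library was left out (adjusted p up to 0.135, 0.0523 and 0.117). Of 36 cytosolic ribosomal protein genes, Rplp0 alone was lower (-0.58), 2.78% of the list. It lost its call with library size alone and without any single library other than DNMT3a 2 (adjusted p up to 0.118). Lower members numbered 9 without DNMT3a 2 and 0 without DNMT3a 1, DNMT3a 3, DNMT3b 2 or DNMT3b 3. Of 13 Hox genes measured of 39 listed, Hoxc13 alone was lower (-0.69), and it lost its call without any single library other than DNMT3a 3 (adjusted p up to 0.140). Hoxc13 is 7.69% of those measured, and it also lost its call with the replicate block.

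Reference genes did not all hold level. Of 15 housekeeping genes, Pgk1, a glycolytic kinase, Gusb, beta-glucuronidase, and Sdha, a subunit of succinate dehydrogenase, were lower (-0.61, -0.57 and -0.29), over a list median of -0.13. The lower ones are 20% of the list, beside 6.75% of all tested genes. Of 5 sex-linked genes, Ddx3y, from the Y chromosome, was lower (-0.31; 44.4, 47.7 and 46.2 against 56.6, 57.5 and 56.8 CPM), and Xist, the RNA of the inactive X, chosen after its values were seen, had 528, 544 and 666 against 467, 495 and 497 CPM (0.25, 95% interval 0.02 to 0.48, adjusted p = 0.146). Each of these calls was lost when at least 1 library was left out. Those of Sdha and Ddx3y were also lost with the replicate block.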
